A study of Mus musculus with 12 samples.

Results

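The genes for the enzymes that use NAD at the surface of mouse lymphocytes were followed in liver NK cells and liver type 1 innate lymphoid cells (ILC1). They were taken from the deposited table by symbol and comprised the ADP-ribosyltransferase genes Art2a-ps and Art2b and the NAD glycohydrolase genes Cd38 and Bst1, which made 4 of the 5545 genes with complete rows. These 4 genes were picked with their values over the groups already known. Their levels and fold changes are therefore a description without a test.

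The study asked how the obese liver alters NK cells. Female C57BL/6 mice (C57BL/6J in the study's methods) were given, from weaning, either the standard RM1 diet (lean) or an obesogenic diet labelled 45% AFE fat with condensed milk added (obese), for 12 weeks. From 3 lean and 3 obese mice, numbered 25, 26 and 27 in each group, both cell types were sorted from the same liver. NK cells were gated as lineage-negative NK1.1+ CD49a- CD49b+ and ILC1 as lineage-negative NK1.1+ CD49a+ CD49b-, with CD3, CD8α and Gr1 among the lineage stains. Each of the 12 libraries was made from 2 ng of total RNA and sequenced for mRNA. Diet was the only treatment, no allele beyond the strain is named for any group, and every group held 3 mice.

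ARTC2.2, the product of Art2b, is a GPI-anchored ectoenzyme that takes ADP-ribose from extracellular NAD and attaches it to arginines of neighbouring surface proteins. Its best known target on T cells is the ATP-gated channel P2X7, which opens once ADP-ribosylated. CD38 and BST1 (CD157) consume the same NAD, and release ADP-ribose or cyclic ADP-ribose, a calcium-mobilising messenger. CD38 is a transmembrane protein and BST1 carries a GPI anchor. In C57BL/6 mice the sister gene of Art2b, Art2a, is interrupted by a stop codon, which is why it is listed as a pseudogene.

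The 2 pairs of genes lie side by side in the genome. In GRCm38 with the GENCODE M21 annotation, Art2a-ps occupied chr7:101552453-101560865 and Art2b chr7:101576970-101585600, both on the minus strand, with 16.1 kb between them. Bst1 (chr5:43818885-43843986) and Cd38 (chr5:43868553-43912375) lay on the plus strand of chromosome 5, 24.6 kb apart. The annotation listed Art2a-ps as a polymorphic pseudogene and the other 3 as protein-coding.

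The stop codon of Art2a-ps is what separates its transcript from a full-length enzyme message, so the coding bases around it are shown with those of Art2b. Both windows lie in exon 3, read on the minus strand 5′ to 3′, and the capitals mark the codon in question:
Art2a-ps, chr7:101554817-101554879: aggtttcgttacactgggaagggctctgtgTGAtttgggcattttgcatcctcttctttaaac
Art2b, chr7:101580178-101580240: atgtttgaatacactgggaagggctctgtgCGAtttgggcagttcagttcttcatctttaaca
The change at this codon was C481T, with the Art2b base first and positions counted from 1 at the first base of the Art2b coding sequence. It ended the Art2a-ps reading frame after 160 codons, whereas that of Art2b ran for 286 codons.

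Reads are placed with one of these genes by the bases at which they differ, and the stretch with the most such bases is shown. Over these 60 bases of exon 3 they mismatched at 21 positions, given in capitals:
Art2a-ps, chr7:101554977-101555036: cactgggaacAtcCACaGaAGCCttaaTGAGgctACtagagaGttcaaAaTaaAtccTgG
Art2b, chr7:101580338-101580397: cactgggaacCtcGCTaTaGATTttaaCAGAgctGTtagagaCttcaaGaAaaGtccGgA
Mismatches occurred outside it as well. Over the aligned coding sequence 754 of 859 bases were identical (87.8%), and the longest run without a mismatch measured 125 bases (Art2a-ps chr7:101555112-101555236, Art2b chr7:101580473-101580597):
Shared run: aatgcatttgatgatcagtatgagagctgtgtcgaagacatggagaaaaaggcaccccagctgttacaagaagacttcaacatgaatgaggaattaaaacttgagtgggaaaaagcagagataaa
How reads that match both genes were counted is not given in the sources used here, so the division of counts between Art2a-ps and Art2b is uncertain.

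The libraries held between 1666637 and 2826766 counts over the rows analysed, which run alphabetically to Cyp26b1 and so are not the whole sequencing depth. No 2 libraries were identical. The ILC1 genes Cxcr6 and Cd200r1 took 1.11 to 1.43% of counts in lean ILC1, 0.222 to 1.16% in obese ILC1 and at most 0.0391% in any NK library. The one NK gene of the marker list among these rows, Cx3cr1, took 0.0476 to 0.115% in NK libraries and 0.000240 to 0.0231% in ILC1, except for 0.0967% in obese ILC1 replicate 26. This library stood apart in further ways. Hepatocyte genes made up 7.90% of its counts, Kupffer cell genes 1.28%, endothelial genes 0.632%, B cell genes 0.525% and neutrophil genes 0.135%, and it had the most genes detected (3292). The T cell genes Cd4, Cd5, Cd6, Cd8a and Cd8b1 were also higher in it than in any other library. The fitted diet differences of Art2b, Art2a-ps and Cd38 in ILC1 are therefore also given without this library. The fewest genes were detected in lean NK replicate 27 (1948, against 2836 and 2841 in lean NK replicates 25 and 26). Kupffer cell genes summed were also higher in obese ILC1 replicates 25 (0.0506%) and 27 (0.0985%) than in lean ILC1 (0.00572 to 0.0193%). In replicate 25 the sum came from 3 of the 8 genes, Adgre1, Clec4f and C1qb, with 520, 250 and 74 counts. There C1qa and C1qc were at 0, against 20 to 34 and 12 to 20 counts in lean ILC1. In replicate 27, 7 of the 8 genes were detected. Obese ILC1 replicate 25 had 2014 genes detected and 0.0533% hepatocyte genes, against at most 0.00856% in lean ILC1. In sorted bulk RNA, fewer cells that carry a transcript and less of it per cell cannot be told apart.

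Art2b was higher in the sorted ILC1 than in the sorted NK cells, and its level in ILC1 was lower in obese than in lean mice. In lean ILC1 the normalized counts (the authors' scaled counts, rounded to whole numbers) were 475, 637 and 586 for replicates 25, 26 and 27. In obese ILC1 they were 257, 170 and 94. Every obese ILC1 library therefore lay below every lean one, with means of 174 ± 81.6 against 566 ± 82.8 normalized counts (SD, n = 3 each), a 3.26-fold difference (3.23-fold without obese ILC1 replicate 26). Such a gap, with all obese ILC1 libraries lower, held for 7.94% of the 2606 genes that passed the filter on low counts.

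NK cells carried little Art2b, and there the order of the diets was the opposite one. The lean NK libraries had 12, 8 and 2 normalized counts and the obese NK libraries 24, 13 and 18, so that each obese library was above each lean one by a margin as small as 1. Group means were 7.33 ± 5.03 and 18.3 ± 5.51 normalized counts (SD, n = 3 each), a 2.5-fold difference that rested on raw counts of 2 to 13 in lean and 20 to 30 in obese NK cells. Of all 2606 genes, 9.9% had every obese NK library above every lean one.

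**Figure D1:**
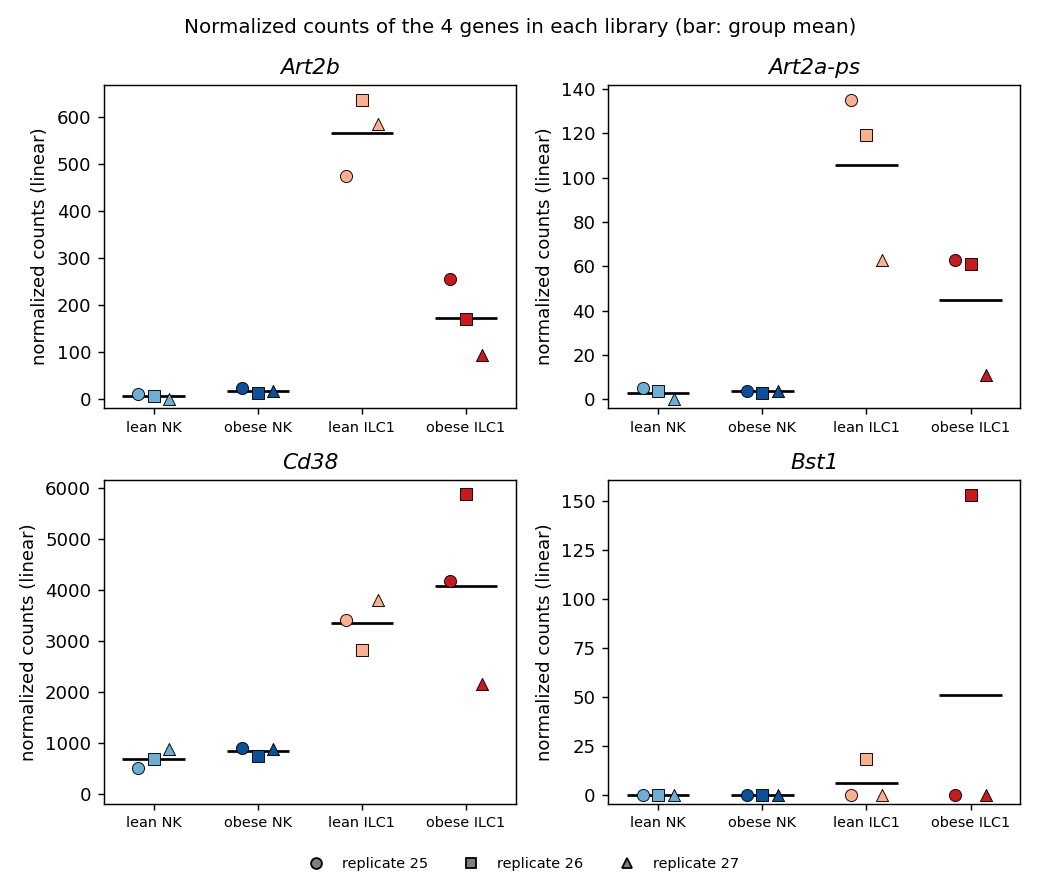
Normalized counts of Art2b, Art2a-ps, Cd38 and Bst1 (linear axes) in each of the 12 libraries by group, with marker shapes for replicates 25, 26 and 27 and a bar at each group mean. Art2b in obese ILC1 (94 to 257) lies below lean ILC1 (475 to 637), Cd38 overlaps between the diets in ILC1, and Bst1 is above 0 in 2 libraries.

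Ordered by mean, Art2b ran lean ILC1, obese ILC1, obese NK, lean NK, and no library of one group reached into its neighbour in that order. The mean was 77.2-fold higher in ILC1 than in NK cells of lean mice and 9.47-fold higher in obese mice (9.57-fold without obese ILC1 replicate 26). Compared inside each mouse, the ILC1 to NK ratio of Art2b, scaled by library, was 39.3 (95% counting interval 22.8 to 74.4), 77.3 (39.0 to 180) and 306 (84.3 to 2532) in lean mice 25, 26 and 27. In obese mice it was 10.8 (7.34 to 16.4), 12.9 (7.91 to 22.0) and 5.24 (3.38 to 8.48). The highest ratio of the lean group came from lean mouse 27, whose NK library had 2 Art2b counts and the fewest genes detected (1948). These intervals cover counting error only.

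Fold changes were also fitted across all genes (edgeR, 1 model of the 4 groups) on the log2 scale. Art2b differed by 6.23 (SE 0.790) between ILC1 and NK cells of lean mice and by 3.18 (SE 0.682) in obese mice. Between obese and lean mice it differed by 1.31 (SE 0.659) in NK cells and by -1.74 (SE 0.642) in ILC1. The diet difference in ILC1 minus that in NK cells was -3.05 (SE 0.920). Without obese ILC1 replicate 26, the diet difference in ILC1 was -1.70 (SE 0.772), close to the value with it, and the difference of the diet effects was -3.0 (SE 1.04). Without lean NK replicate 27, the diet difference in NK cells was 0.86 and the difference of the diet effects -2.61.

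**Figure D2:**
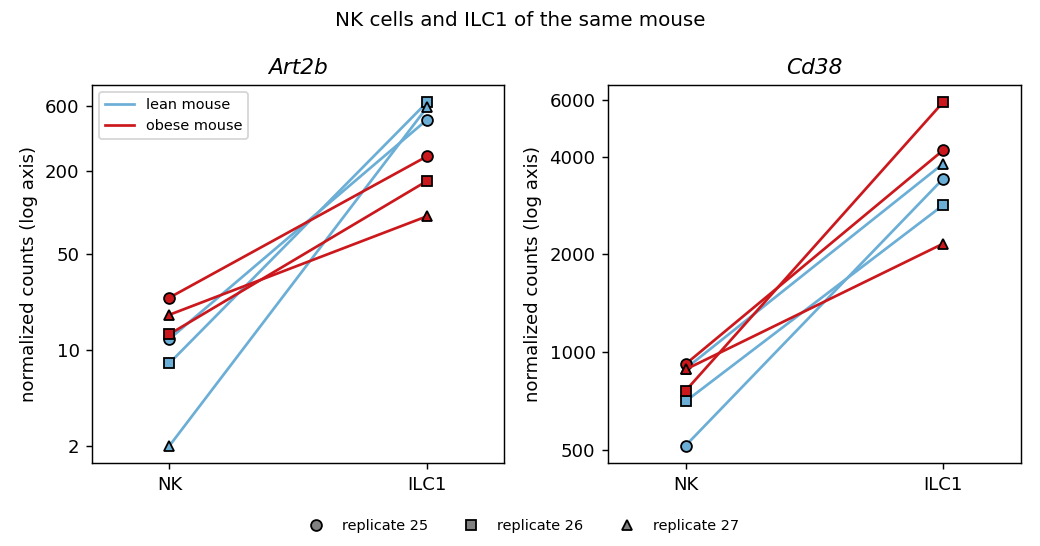
Normalized counts of Art2b and Cd38 (log axes) in NK cells and ILC1, with a line joining the 2 libraries of each mouse, blue for lean and red for obese. The Art2b lines of the obese mice start higher and end lower than those of the lean mice, whereas the Cd38 lines of both diets run through one another.

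Transcripts assigned to the interrupted gene Art2a-ps were scarcer than those of Art2b and were spread over the groups in a similar order. Lean ILC1 had 135, 119 and 63 normalized counts and obese ILC1 63, 61 and 11. The lowest lean library thus equalled the highest obese one, and the means were 105.7 ± 37.8 and 45.0 ± 29.5 normalized counts (SD, n = 3 each). NK cells held 5, 4 and 0 normalized counts in lean mice and 4, 3 and 4 in obese mice, with no separation of the diets.

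On the log2 scale the fitted difference of Art2a-ps between ILC1 and NK cells was 5.13 (SE 1.34) in lean and 3.42 (SE 1.23) in obese mice. Between the diets it was 0.43 (SE 1.16) in NK cells and -1.28 (SE 1.13) in ILC1, a size close to its standard error. Without obese ILC1 replicate 26 the latter was -1.52 (SE 1.40), and the obese ILC1 mean was 37.0 in place of 45.0 normalized counts. In lean mouse 27 the NK library had no Art2a-ps count, and the ILC1 to NK ratio was at least 21.9 (against a floor of 3 counts in that library). The other 2 lean mice had ratios of 29.0 each, and the obese mice 15.8, 18.6 and 2.54. The 18.6 of obese mouse 26 rests on the low scaling factor of its ILC1 library.

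Art2b took 73.5 to 90.3% of the counts assigned to either gene in the ILC1 libraries. In obese NK cells this share was 80.0 to 85.7%, and in lean NK cells, with 2 to 18 counts of both genes in a library, 66.7 to 100%. With both genes summed to 1, which does not depend on how reads were divided between them, the log2 difference was 4.62 between ILC1 and NK cells, 1.11 between obese and lean NK cells and -1.66 between obese and lean ILC1.

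Cd38 was the most abundant of the 4 genes in every library and was higher in ILC1 than in NK cells under both diets. In NK cells its normalized counts were 514, 704 and 888 in lean and 917, 759 and 883 in obese mice. In ILC1 they were 3421, 2837 and 3809 in lean and 4189, 5893 and 2158 in obese mice. All 6 ILC1 libraries were above all 6 NK libraries, and the diets overlapped in both cell types. The means were 4.78-fold higher in ILC1 than in NK cells in lean mice and 4.78-fold higher in obese mice, or 3.72-fold in obese mice without obese ILC1 replicate 26.

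For Cd38 the fitted log2 difference between ILC1 and NK cells was 2.27 (SE 0.319) in lean and 2.19 (SE 0.317) in obese mice. The diet difference was 0.32 (SE 0.305) in NK cells and 0.23 (SE 0.304) in ILC1. The latter turned to -0.079 without obese ILC1 replicate 26. That library held the highest normalized count of Cd38, 5893, but 1833 CPM (counts scaled to a common total over the rows analysed), between the 2048 and 1198 of the other 2 obese ILC1 libraries. The 2 scales part because the authors' scaling factor for it, recovered as raw over normalized counts, was 0.57, the lowest of the 12. Per mouse, the ILC1 to NK ratio was 6.65, 4.03 and 4.29 in lean and 4.57, 7.77 and 2.44 in obese mice, and the 2 ranges overlapped.

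Bst1, the second NAD glycohydrolase of the locus, was at 0 counts in 10 of the 12 libraries. The exceptions were lean ILC1 replicate 26 with 18 counts and obese ILC1 replicate 26 with 87, the library in which genes of myeloid and liver cells were also high. It did not pass the filter, which left 3 of the 4 genes tested, and no fold change is given for it. A count of 0 allows up to 3 counts in a library, so a low level of Bst1 was not detectable at this depth.

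Per kilobase of exon, Cd38 led in all groups, with means of 180 normalized counts per kb in lean NK, 219 in obese NK, 863 in lean ILC1 and 1049 in obese ILC1. Art2b came next in lean ILC1 at 200.1 and in obese ILC1 at 61.4, and had 2.59 and 6.48 in lean and obese NK cells. Art2a-ps stood at 84.1 in lean and 35.8 in obese ILC1 and below 3 in NK cells. Cd38 thus exceeded Art2b in each group per length as it did by count.

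Of the 3 genes that passed the filter, all 3 were past both thresholds (more than a 2-fold change at an adjusted p below 0.05) as higher in ILC1 than in NK cells over both diets, where 3.15% of all 2606 genes were. Their normalized counts in the 6 ILC1 libraries were each above those in the 6 NK libraries, which held for 3.03% of all genes. With the mouse as a block, Art2a-ps was no longer past the thresholds (log2 difference 4.38), and 32 genes in all were called higher and 14 lower in place of 82 and 31. Within lean mice Art2b and Cd38 were past them, against 1.5% of all genes, and within obese mice Cd38 alone, against 0.537%. In the comparisons of obese with lean NK cells, of obese with lean ILC1 and of the 2 diet differences, none of the 3 genes and 0% of all genes passed. There edgeR gave 31, 277 and 155 genes at an unadjusted p under 0.05, and DESeq2 called 8, 77 and 21. Among those of DESeq2 was Art2b, lower in obese than lean ILC1, where 0.73% of genes were called lower, and in the difference of diet effects, where 0.472% were. The genes were chosen on these contrasts, so the counts describe them and carry no weight as evidence.

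**Figure D3:**
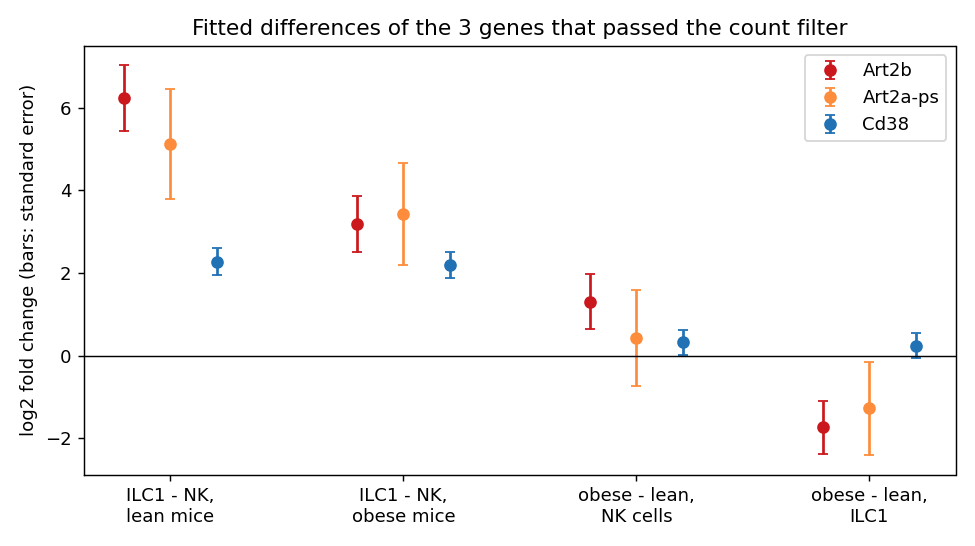
Fitted log2 fold changes (points) with standard errors (bars) of Art2b, Art2a-ps and Cd38 for ILC1 against NK cells in lean and in obese mice and for obese against lean mice in each cell type. Art2b drops from 6.23 in lean to 3.18 in obese mice, with a diet difference of -1.74 in ILC1, whereas Cd38 is 2.27 and 2.19.

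In the mouse, T cells express ARTC2.2 abundantly, so T cell markers were set beside Art2b. Of these, Cd3g, a CD3 chain gene, was lower mainly in obese ILC1 replicates 26 and 27. Art2b was lower in replicate 25 too, where Cd3g had 6160 CPM against 6770 to 7102 in lean ILC1. The other genes of the list summed did not follow Cd3g. The 9 genes of the T cell list, all in the table, summed to 0.809, 0.95 and 0.811% of counts in lean ILC1 and to 0.771, 0.321 and 0.268% in obese ILC1. Art2b in CPM was 258, 339 and 304 in lean and 125, 52.9 and 51.9 in obese ILC1. Most of the T cell sum was Cd3g, with 12045, 13149 and 13275 counts in lean and 10266, 1991 and 2875 in obese ILC1. Without Cd3g the other 8 genes took 0.132, 0.259 and 0.101% in lean and 0.155, 0.213 and 0.155% in obese ILC1, which overlap, and within obese ILC1 were highest in replicate 26. That sum holds Cd28, which NK cells carried as well, and so is no measure of T cells alone. Cd28 had means of 1075 and 1156 normalized counts in lean and obese NK cells, and 1002 and 1629 in lean and obese ILC1. It had 1152, 236 and 984 CPM in obese ILC1 replicates 25, 26 and 27. In replicate 25, Cd4, Cd5 and Cd6 were at 0 counts, and Cd3d had 219 CPM against 374 to 1071 in lean ILC1. Cd3e, at 181 CPM there, lay inside the lean ILC1 range. Both CD8 genes, Cd8a and Cd8b1, were at 0 in all lean libraries. In NK cells the whole list took 0.0485 to 0.103% in lean and 0.0809 to 0.116% in obese mice. Across cell types, Cd3d, Cd3e and Cd3g were past both thresholds as higher in ILC1. The part of any such cells in the Art2b values was not tested.

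The ILC1 markers did not order the obese ILC1 libraries as Art2b did. Cxcr6 and Cd200r1 together took 1.16, 0.222 and 0.881% in obese ILC1 replicates 25, 26 and 27, lowest in replicate 26, whereas Art2b in CPM was nearly equal in 26 and 27. Taken singly, these genes parted by diet. Cxcr6 had 8559, 1951 and 6371 CPM in obese ILC1, each below the 9608 to 12387 of lean ILC1, as Art2b was. Cd200r1 had 3017, 267 and 2435 CPM against 1476 to 1988 in lean ILC1, and so was higher in replicates 25 and 27. In obese NK cells Cxcr6 and Cd200r1 together took 0.0157, 0.0391 and 0.0128%, and in lean NK cells 0.00337 to 0.00723%. The obese NK libraries were thus above the lean ones for these ILC1 genes as for Art2b, in counts of 323 to 1104 against 72 to 146 of 1 library. Whether a few ILC1 in the NK gate contributed to the Art2b counts there was not tested.

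**Figure D4:**
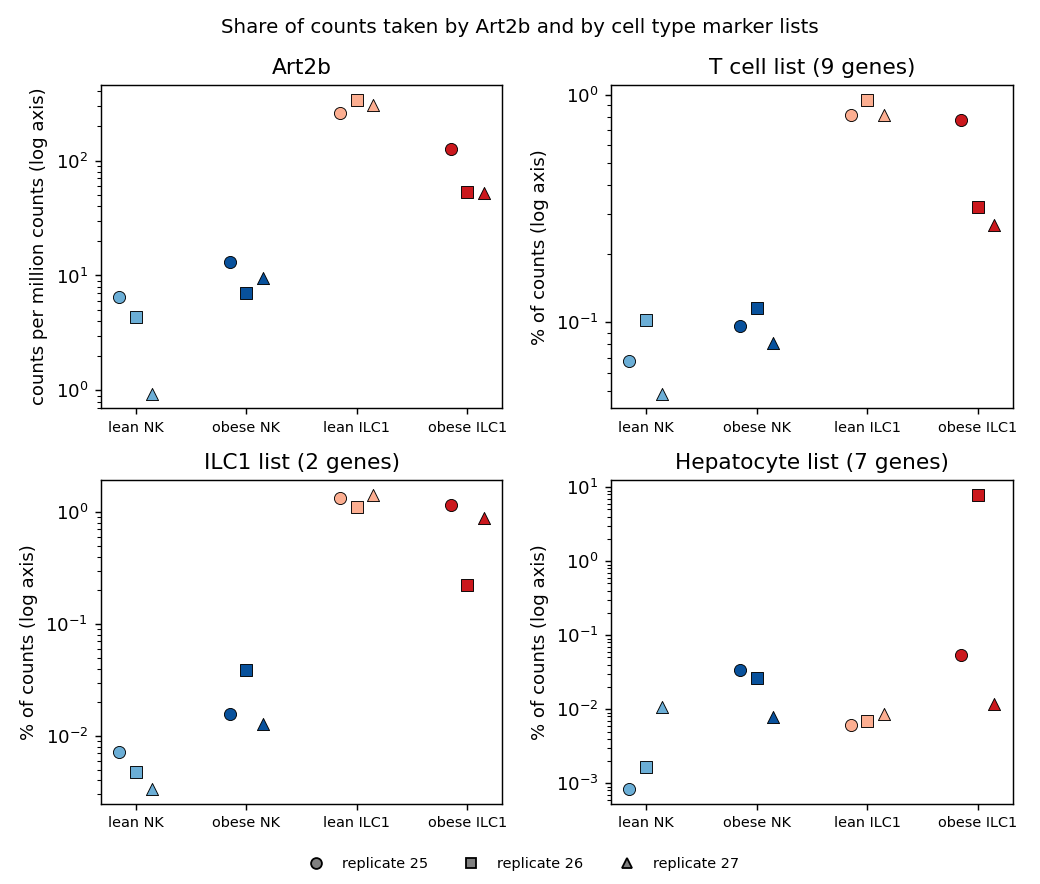
Art2b in CPM (counts scaled to a common library total) and the T cell, ILC1 and hepatocyte marker lists in % of counts (log axes), for each library by group with marker shapes for the replicates. The T cell list is lower in obese ILC1 replicates 26 and 27 as Cd3g is. The other 8 genes, Cd28 among them, take 0.155, 0.213 and 0.155% in replicates 25, 26 and 27. The hepatocyte list reaches 7.90% in obese ILC1 replicate 26.

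The genes whose log2 CPM ran most like those of Art2b over the 12 libraries were Art2a-ps (Pearson r = 0.970), Atp8a2 (0.967), a phospholipid flippase gene, and Cxcr3 (0.959), a chemokine receptor gene. Atp8a2 had means of 2.0 and 5.67 normalized counts in lean and obese NK cells and 909 and 184 in lean and obese ILC1. Cxcr3 had 657 and 1148 in NK cells and 6898 and 4510 in ILC1. For Art2a-ps the most alike were Art2b, Atxn1 (0.942) and Cd3g (0.940). For Cd38 they were B2m (0.949), the light chain of MHC class I, Aqp9 (0.946), an aquaglyceroporin gene, and Bdh1 (0.936), of ketone body metabolism. Cd38 itself ranked 33rd among 2605 genes in likeness to Art2b (r = 0.886). These correlations are descriptions over libraries that share mice, groups and depth.

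Around these enzymes, lists of genes for related steps were looked up, 105 genes in all, of which 60 were in the table and 36 passed the filter. Between ILC1 and NK cells 3 of the 36 rose in ILC1 and none fell, against 3.15% and 1.19% of all genes. These 3 were Ada, Camk4 and Bst2, and the median difference over all tested genes was 0.036 on the log2 scale. In both diet comparisons and in the difference between them, 0 of the 36 passed, as did 0% of all genes.

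Of the other ecto-ADP-ribosyltransferases, none passed the filter. Art1 was at 0 in every library. Art3 reached 24 counts in lean ILC1 replicate 27 and 74 in obese ILC1 replicate 26, and at most 5 in any other library. Art4 appeared with 13 counts in obese ILC1 replicate 26 alone, and Art5 reached 14 in lean ILC1 replicate 26. Art2b and Art2a-ps were therefore the only genes of the family with counts in all ILC1 libraries.

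Genes that remove or read ADP-ribose did not follow Art2b. None of the 5 tested passed the thresholds in any comparison, and their median ILC1 to NK difference was -0.07. Adprh, the hydrolase that frees arginine from ADP-ribose, had means of 1102 ± 125 normalized counts in lean NK and 987 ± 70.3 in obese NK. In ILC1 the Adprh means were 745 ± 126 in lean and 1361 ± 765 in obese mice (SD, n = 3 in each of the groups). Its obese ILC1 libraries read 2212, 1142 and 730, of which the lowest lay inside the lean range, and edgeR gave a diet difference of 0.84 (SE 0.348, adjusted p = 0.395). Chd1l, a chromatin remodeller that binds poly-ADP-ribose, and Adprm, which cleaves ADP-ribose itself, differed by -0.11 and 0.15 between ILC1 and NK cells.

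Among genes of NAD synthesis and use, 4 of 25 were in the table and 1 was tested. Afmid, of the kynurenine route to NAD, had means of 463 and 397 normalized counts in lean and obese NK cells and 466 and 347 in lean and obese ILC1. Its ILC1 to NK difference was -0.11 and did not pass. Aspdh and Aox1 were seen mainly in obese ILC1 replicate 26, with 26 and 15 counts.

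In the list of extracellular nucleotide and adenosine genes, 1 of 7 tested passed, and the list's median ILC1 to NK difference was 0.97. Ada, the deaminase that turns adenosine into inosine, had 791, 902 and 607 normalized counts in lean ILC1 and 880, 323 and 529 in obese ILC1. In NK cells it had 165, 122 and 247 in lean and 176, 256 and 186 in obese mice. All ILC1 libraries were above all NK libraries, by 1.79 on the log2 scale (SE 0.309, edgeR adjusted p = 0.00617). With the mouse as a block the adjusted p was 0.10. The adenosine receptor gene Adora2a, the most abundant of this list, had means of 1219 ± 69.9 and 1466 ± 180 normalized counts in lean and obese NK cells and 1047 ± 228 and 674 ± 476 in lean and obese ILC1 (SD, n = 3 each). Its difference between the cell types, -0.68 (SE 0.290), did not pass (edgeR adjusted p = 0.229). Aprt, which salvages adenine, differed by 0.97 at an adjusted p of 0.0446, under the fold threshold.

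Cyclic ADP-ribose acts on calcium stores, and 18 genes of calcium release and its readers were tested, with a median ILC1 to NK difference of 0.016. Camk4, a calmodulin-dependent kinase gene of lymphocytes, was the one past both thresholds. It had 16, 27 and 0 normalized counts in lean NK, 50, 52 and 25 in obese NK, 253, 224 and 375 in lean ILC1 and 504, 112 and 368 in obese ILC1. The difference was 3.61 (SE 0.818, edgeR adjusted p = 0.0257), and 0.199 was the adjusted p with the mouse as a block. Below the fold threshold, Calm2, a calmodulin gene, was lower in ILC1 by a log2 difference of -0.68 (SE 0.113, adjusted p = 0.00486) and Calr, for the calcium-storing chaperone calreticulin, higher by 0.80 (SE 0.185, adjusted p = 0.0285).

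Among other GPI-anchored surface proteins, which share the membrane anchor of ARTC2.2 and BST1, 1 of 5 tested passed. Bst2, the virus-tethering protein tetherin and no relative of Bst1, had 256, 351 and 415 normalized counts in lean NK, 344, 391 and 343 in obese NK, 533, 919 and 961 in lean ILC1 and 662, 2633 and 895 in obese ILC1. It differed by 1.56 between ILC1 and NK cells (SE 0.325, edgeR adjusted p = 0.0173), and the adjusted p was 0.0575 with the mouse as a block. Its highest value was in obese ILC1 replicate 26, without which the difference was 1.16 (SE 0.229, edgeR adjusted p = 0.0101). Cd52 was higher in ILC1 by 0.74 (SE 0.174, adjusted p = 0.0312), under the fold threshold, and Cd48, a ligand of the NK receptor 2B4, differed by -0.10. Within lean mice only Ada kept both thresholds (edgeR adjusted p = 0.0293), and within obese mice none of these genes did, with adjusted p-values of 0.146 for Ada, 0.252 for Camk4 and 0.0829 for Bst2.

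**Figure D5:**
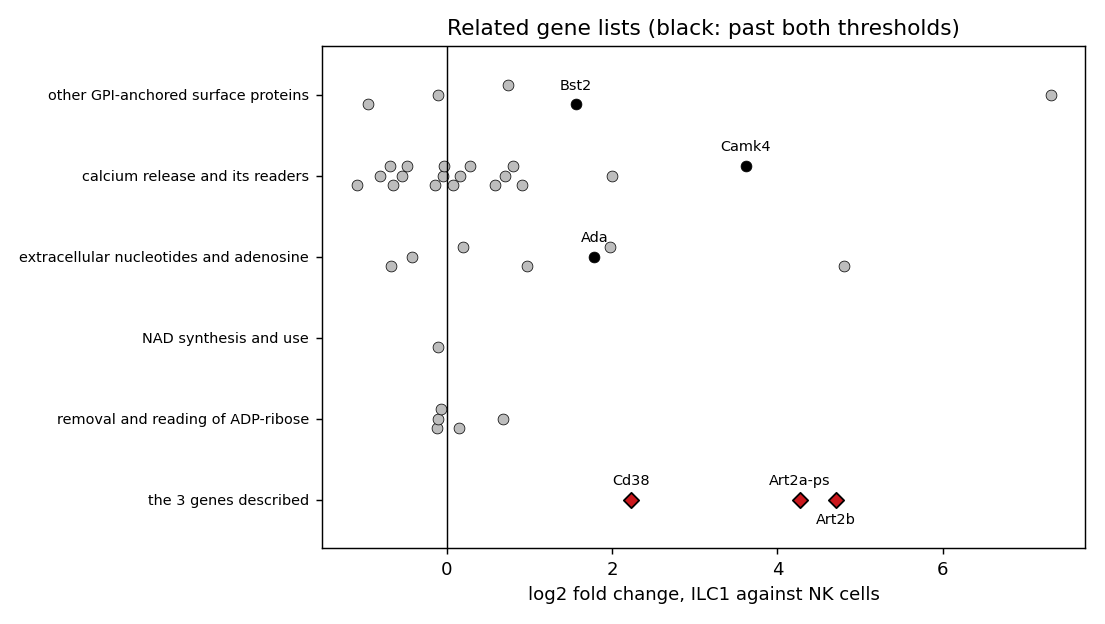
Fitted log2 fold changes of ILC1 against NK cells for each tested gene of the related lists (circles, 1 row per list, black where past both thresholds) and for Art2b, Art2a-ps and Cd38 (red diamonds). Ada at 1.79, Camk4 at 3.61 and Bst2 at 1.56 are the black points, whereas Cd14 at 7.31 and Adora2b at 4.81, high in obese ILC1 replicate 26, did not pass.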

How the data were processed

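RNA of sorted cells was made into libraries with a low-input kit from 2 ng and sequenced on a NextSeq. The submitters' processing notes name bcl2fastq 2.19, Trimmomatic 0.36.5, STAR 2.5.2b, featureCounts 1.6.0.2 and mm10, the assembly GRCm38. Annotation, strand setting and treatment of reads with several matches are not given in the sources used here. The authors deposited raw counts per gene, which were tested as they stand, and SARTools normalized counts rounded to whole numbers, held here as a score and used to describe levels. 1 incomplete row was left out. Columns with the authors' own fold changes and p-values were not used. Genes whose symbols follow Cyp26b1 in the alphabet were not used here.

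Counts were fitted with edgeR 4.0.16 in R 4.3.3 (TMM, filterByExpr, glmQLFit and glmQLFTest) in 1 model of 4 groups over 12 libraries and 2606 genes. A call needed more than a 2-fold change and a Benjamini-Hochberg adjusted p below 0.05, as in the study. SE was taken from the size of the log2 fold change over the square root of its F value. The steps were tested on simulated data with 200 changed genes. Alternatives were DESeq2 1.42.0, its size factors in edgeR, no filter, the compared libraries alone, a replicate block, single diets, summed Art2 genes and leaving out each library. Group means without obese ILC1 replicate 26 were added after seeing the data. Each mouse gave both an NK and an ILC1 library, so the mouse block pairs them (correlations of their deviations -0.0763 to 0.141), and lean and obese mice share only a number. Likeness used log2 CPM (counts scaled to a common library total) with a prior count of 2. The members and gene lists were chosen with earlier results of these data known. The genes named were the 4 described, those called in each related list with its 3 most abundant, and the 3 most alike to each (1 gene under this rule is not reported here); Calr, Cd52 and others under the fold threshold, and the library values of Art1, were added after seeing values.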

Additional observations from a re-analysis of the deposited data

Results flagged for a closer look

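The diet differences of Art2b pointed in opposite directions in the 2 cell types. Every obese NK library lay above every lean NK library, and every obese ILC1 library below every lean ILC1 library. The difference between the 2 diet effects was -3.05 on the log2 scale, given without a test because Art2b was chosen with these values known. It was found among 23 genes looked at in this way. Groups of 3 libraries are too small for a formal test of outlying libraries within a group. With each library left out in turn, the difference ranged from -3.61 (without lean NK 25) to -2.61 (without lean NK 27).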

How the results depend on the processing

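In ILC1 against NK cells, 82 genes were called higher and 31 lower. DESeq2 gave 149 and 73, the mouse as a replicate block 32 and 14, lean mice alone 39 higher, obese mice alone 14 and 10, and leaving out 1 library 40 (obese NK 25) to 114 (obese ILC1 25) higher and 22 (obese NK 27) to 47 (obese ILC1 25) lower. In obese against lean NK cells the counts of 0 became 8 higher with DESeq2 and 0 to 1 with a library left out. In obese against lean ILC1 they became 57 higher and 20 lower with DESeq2, and 0 to 4 higher and 0 to 2 lower with a library left out. For the difference of the diet effects DESeq2 gave 6 higher and 15 lower, and leaving out a library 0 to 1 lower. The cause was not tested.

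Art2b kept its direction in every alternative. Its ILC1 to NK difference stayed past both thresholds without any 1 library (4.47 to 4.99), as did that of Cd38 (2.05 to 2.38). Art2a-ps (3.98 to 4.52) kept its call without lean NK 27, lean ILC1 27 or any 1 obese ILC1 library, and lost it without each of the other 7 and with the block (4.38). In obese against lean ILC1, Art2b ranged from -2.17 to -1.46 without 1 library and DESeq2 gave -1.70, with -3.01 for its difference of diet effects. DESeq2 called both where edgeR did not, and since Art2b was chosen on these values the calls add no evidence. Ada kept its call without each of the 12 libraries. Camk4 (3.32 to 4.02) kept it without lean NK 27, obese ILC1 25 or obese ILC1 26, and Bst2 (1.16 to 1.73) without lean NK 27, lean ILC1 25 or any 1 obese ILC1 library. The block ended the calls of all 3, as it did that of Art2a-ps, and changed no other call of the genes named. Directions turned without 1 library for values near 0, each given here with the range over such fits. In obese against lean NK cells these were Bst2 without lean NK 25 (-0.049 to 0.27) and Art2a-ps without lean NK 27 (-0.14 to 0.92). In obese against lean ILC1 they were Camk4 without obese ILC1 25 (-0.26 to 0.63), and Cd38 (-0.079 to 0.53) and Bst2 (-0.041 to 1.06) without obese ILC1 26. In the difference of diet effects they were Cd38 without lean NK 25 (0.087), lean ILC1 27 (0.0028) or obese ILC1 27 (0.21), in a range from -0.40 to 0.21, and Bst2 without obese ILC1 26 (-0.15 to 0.95).

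The number of mice and raw counts of 2 to 30 for Art2b in NK cells limit what these libraries can resolve.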
